A study of Mus musculus with 4 samples.

Results

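Transcripts of 10 genes that build and shape mitochondria were compared between sciatic nerves of LKB1-SCKO mice and control nerves. The genes were chosen by symbol, as every probe annotated to Ppargc1a, Ppargc1b, Tfam, Nrf1, Gabpa, Mfn1, Mfn2, Opa1, Dnm1l or Fis1, which gave 24 of the 45281 probes on the array and 10 of the 10858 genes tested. LKB1-SCKO mice lack the kinase LKB1 (gene Stk11) in Schwann cells, the glia that ensheathe peripheral axons. Control mice carried the floxed Stk11 allele and no Cre recombinase, and the promoter that drove Cre is not given in the sources used here. Both genotypes were taken at postnatal day 60 on a mixed FVB/C57BL/6 background. Each of the 4 Illumina arrays carried a pool of RNA from 3 nerves of 3 different mice, with 2 pools and 6 mice per genotype. Whole nerve was used, so axons, fibroblasts, vessels, fat and adhering muscle contribute RNA beside Schwann cells, and fewer cells of a type cannot be told apart from less RNA per cell.

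New mitochondria depend on genes in the nucleus and on the small genome inside the organelle. Ppargc1a and Ppargc1b encode coactivators that are recruited by DNA-binding factors such as NRF1 and GABPA. These factors switch on nuclear genes of respiration as well as Tfam, whose product packages mitochondrial DNA and helps to transcribe it. The shape of the network is set by fusion, which needs the mitofusins Mfn1 and Mfn2 on the outer membrane and Opa1 on the inner membrane, and by fission, in which the dynamin-related GTPase encoded by Dnm1l is drawn to the outer membrane by adaptors. In peripheral nerve this machinery is of medical interest because mutations in MFN2 cause an axonal form of Charcot-Marie-Tooth disease. AMPK, a kinase that LKB1 activates, is known to act on the coactivator and on a fission adaptor by phosphorylation, which an RNA array does not measure.

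Between 19588 and 20627 probes were detected per array. Stk11 fell 1.74-fold in LKB1-SCKO (log2 fold change -0.80, SE 0.133, limma, adjusted p = 0.0448), a call that was lost when any 1 of the 4 pools was left out (adjusted p from 0.0704 to 0.217), without the detection filter (0.0582) and with the authors' processed values (0.0625). Whether its probe lies in the deleted stretch is not given in the sources used here. Pools differed in tissue other than glia. The 14 measured skeletal muscle markers had a mean log2 intensity of 11.52 and 11.36 in controls, 9.63 in LKB1-SCKO 1 and 11.77 in LKB1-SCKO 2, so that LKB1-SCKO 1 stood apart. All 7 measured markers of myelinating Schwann cells, among them Mbp, Mag, Pmp22 and Sox10, were detected. Their list means were 13.92 and 13.95 in controls and 13.80 and 13.84 in LKB1-SCKO. Of the 7, 3 had a higher mean in LKB1-SCKO and 4 a lower one. The threshold was passed by 0, against 3.79% of all genes tested. At an unadjusted p under 0.05 there were 2, against 22.4% of all genes. These were Cldn19 (log2 fold change -0.70, limma, adjusted p = 0.0559) and Pmp22 (-0.42, adjusted p = 0.148).

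None of the 10 genes passed the threshold in limma at an adjusted p of 0.05, whereas 3.79% of all genes tested did. The smallest adjusted p among them was 0.232 and the largest 0.952. At an unadjusted p under 0.05 the count was again 0 of 10, against 22.4% of all genes. Of the 10 genes, 5 had a higher mean in LKB1-SCKO and 5 a lower one. The median log2 fold change was 0.0022 over the 10 genes and 0.012 over all genes, and the median absolute value was 0.14 against 0.22 over all genes. In 8 of the 10 genes the distance between the pools of at least 1 genotype was larger than the difference between genotypes. The pools of the genotypes did not overlap for 3 of the 10 genes (Ppargc1a, Opa1 and Fis1), where 55.1% of all genes had pools that did not overlap. Opa1 was kept by the detection filter only through the controls, where it was higher, so its place in this count was helped by the filter. These counts describe the 10 genes and are no test of them as a set.

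**Figure D1:**
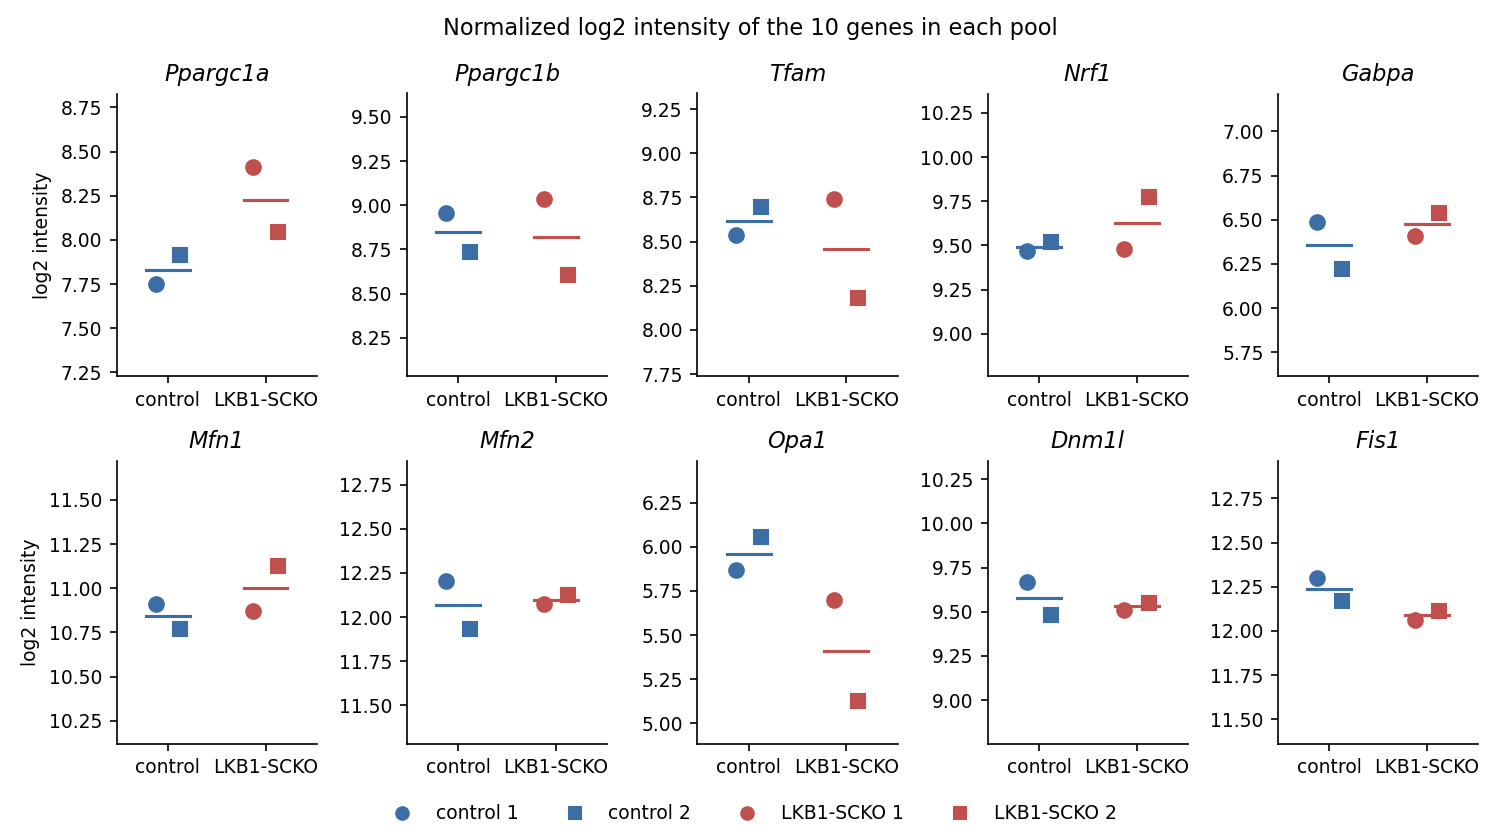
Normalized log2 intensity of the brightest kept probe of each of the 10 genes, with 1 point per pool (circle, pool 1; square, pool 2), bars at the genotype means and the same axis length of 1.6 log2 units in every panel. Points of control and LKB1-SCKO overlap in height in 7 panels and are apart in those of Ppargc1a, Opa1 and Fis1.

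A missed threshold does not show that levels were equal, so the intervals were read as well. The 95% intervals of the log2 fold changes reached from 0.33 to 0.56 to either side of the estimate. For 9 of the 10 genes the interval lay within 1 log2 unit of 0. For Opa1 it reached down to -1.11, a 2.16-fold difference. The smallest change among the 412 called genes was 0.73 on the log2 scale, above the largest of the 10 estimates, 0.55 in size. In this setting no gene with a change under 0.73 was called.

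Of the 24 probes, 17 passed the detection filter, which asked that both arrays of 1 genotype or the other have a detection p-value under 0.05, and 7 did not. Detection on all 4 arrays was seen for 15 probes. Among the 17 kept probes 0 passed an adjusted p of 0.05 over all kept probes, where 2.52% of all kept probes did, and 1 had an unadjusted p under 0.05, against 20.4% of all kept probes. That probe belonged to Opa1, was undetected in both controls and was kept only through LKB1-SCKO, where it was higher, so its p supports nothing.

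**Figure D2:**
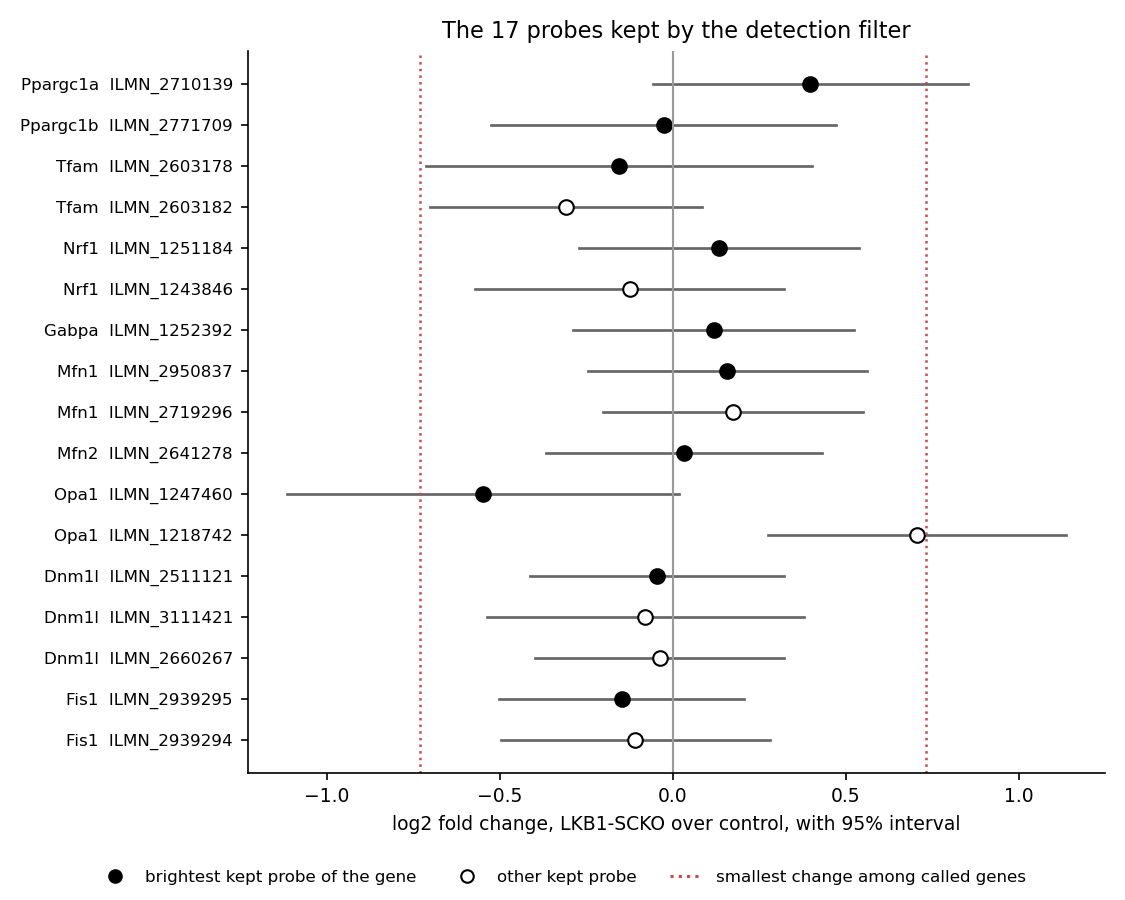
Log2 fold change of LKB1-SCKO over control (horizontal axis) with its 95% interval for the 17 kept probes, filled where the probe is the brightest of its gene and open otherwise. Dotted lines mark 0.73 to either side of 0, the smallest change among the called genes, and all intervals cross 0 except that of the open Opa1 probe, which was kept only through LKB1-SCKO.

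Among the coactivators, Ppargc1a had a higher mean in LKB1-SCKO, 1.32-fold, but did not pass the threshold. It encodes the coactivator best known for driving mitochondrial biogenesis in muscle and brown fat. Controls read 7.75 and 7.91 on the log2 intensity scale, and LKB1-SCKO pools read 8.41 and 8.04. Both LKB1-SCKO pools lay above both control pools, and LKB1-SCKO 1 was the highest. The log2 fold change of 0.40 (SE 0.176, 95% interval -0.048 to 0.84) had an adjusted p of 0.264 in limma. Leaving out LKB1-SCKO 1 gave an estimate of 0.21 and leaving out LKB1-SCKO 2 gave 0.58, so its size depended on the pool. A further Ppargc1a probe was detected on 0 of 4 arrays.

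Ppargc1b, the related coactivator, gave 8.96 and 8.73 in controls and 9.03 and 8.60 in LKB1-SCKO. The LKB1-SCKO pools lay on either side of the control pools. The log2 fold change was -0.027 (SE 0.194, adjusted p = 0.952), with an interval from -0.52 to 0.46.

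Fat and muscle are both tissues in which Ppargc1a is known to be active, and their markers differed between pools. Ucp1, which encodes the uncoupling protein that defines brown fat, was 11.47 and 11.13 in controls and 12.05 and 11.92 in LKB1-SCKO (log2 fold change 0.69, adjusted p = 0.0978). Elovl3, a fatty acid elongase gene of brown fat, was 5.37 and 4.85 in controls, of which 1 did not detect it, and 6.11 and 6.19 in LKB1-SCKO. It was kept only through LKB1-SCKO, where it was higher, so its values are a description. Ucp1, detected on all 4 arrays, was higher in both LKB1-SCKO pools, as was Ppargc1a. Cidea and Cox7a1, the other measured brown fat markers, stood at -0.013 and 0.12 on the log2 scale. Of the 4 measured brown fat markers 0 passed (limma; 2 at an unadjusted p under 0.05, Elovl3 among them), and their summed intensity ranged from 9136 to 13238 in controls and from 11685 to 14221 in LKB1-SCKO. For 7 measured general adipocyte markers, of which 0 passed (0 at an unadjusted p under 0.05), it ranged from 5589 to 15032 in controls and from 12207 to 17681 in LKB1-SCKO. The 14 muscle markers, of which 0 passed (0 at an unadjusted p under 0.05), summed to between 83976 and 95794 in controls, to 30592 in LKB1-SCKO 1 and to 111953 in LKB1-SCKO 2. The pool with the highest Ppargc1a, LKB1-SCKO 1, had the lowest muscle markers and the highest adipocyte sum. Between the control pools the order of fat and Ppargc1a was the reverse. Control 1 had the lower Ppargc1a (7.75) with an adipocyte sum of 15032, and control 2 had 7.91 with a sum of 5589. The part of these tissues in the value of Ppargc1a was not tested.

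**Figure D3:**
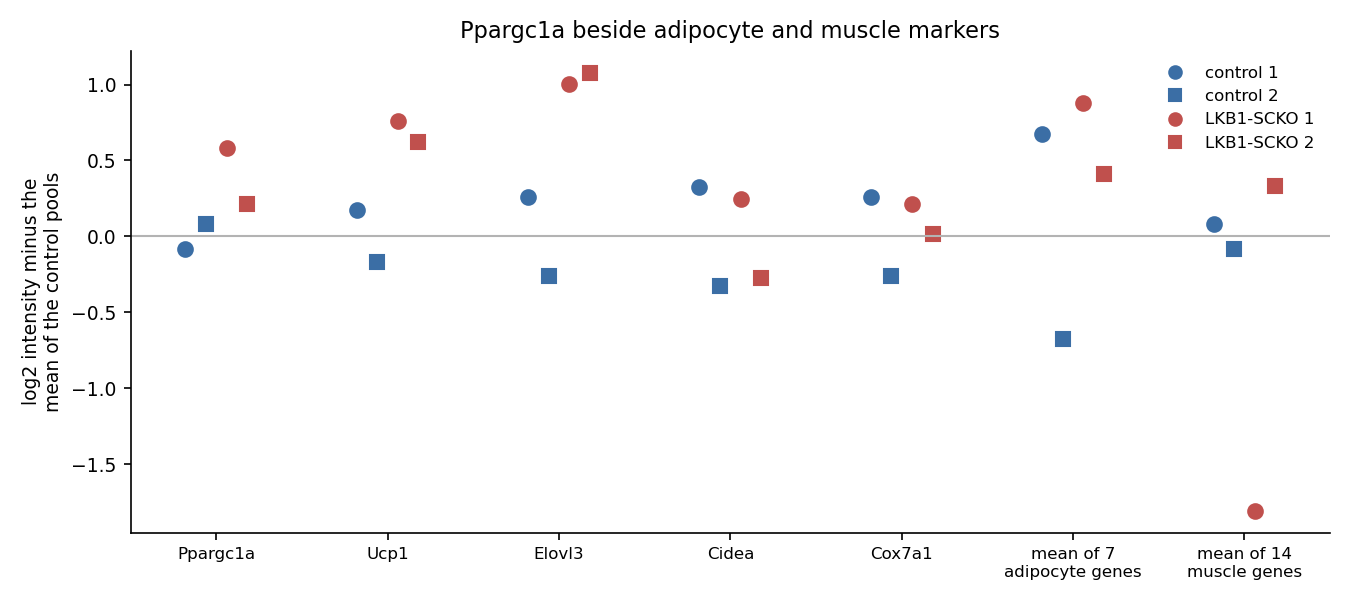
Log2 intensity of Ppargc1a, of 4 brown fat markers and of the mean of 7 adipocyte and 14 muscle markers in each pool (circle, pool 1; square, pool 2), minus the mean of the control pools. Ppargc1a, Ucp1 and Elovl3 were higher in both LKB1-SCKO pools, and Elovl3 was kept only through LKB1-SCKO. Cidea, Cox7a1 and the adipocyte mean overlapped between genotypes, while the muscle mean was low in LKB1-SCKO 1 alone.

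None of the DNA-binding factors nor Tfam passed the threshold. Nrf1, the gene of nuclear respiratory factor, gave 9.47 and 9.52 in controls and 9.48 and 9.77 in LKB1-SCKO at its brightest probe. One LKB1-SCKO pool fell between the control pools, and the log2 fold change was 0.13 (SE 0.154, adjusted p = 0.652). A dimmer Nrf1 probe stood at -0.13, so the probes differed in sign with both intervals across 0. Gabpa encodes the DNA-binding subunit of an ETS-family factor. Its single kept probe gave 6.49 and 6.22 in controls and 6.41 and 6.54 in LKB1-SCKO (log2 fold change 0.12, SE 0.154, adjusted p = 0.694). Of the other 3 Gabpa probes 1 was detected on 1 control array and the rest on none.

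Tfam, which encodes the main packaging and transcription factor of mitochondrial DNA, had 2 kept probes. The brighter gave 8.54 and 8.70 in controls and 8.74 and 8.18 in LKB1-SCKO, with the highest and the lowest value both in LKB1-SCKO (log2 fold change -0.16, SE 0.219, adjusted p = 0.715). The dimmer gave 8.19 and 8.35 in controls and 8.07 and 7.85 in LKB1-SCKO. There both LKB1-SCKO pools lay below both control pools, with a log2 fold change of -0.31 (SE 0.157, adjusted p over probes = 0.335). In 15 other settings on the same values the dimmer probe lay between -0.42 and -0.20, and the smallest adjusted p among these was 0.278. Other detection filters, array weights, an intensity trend and replicate blocks left its estimate at -0.31. The sign across settings is therefore no further support.

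Because NRF1 and GABPA are DNA-binding factors, the RefSeq start regions of the 10 genes were searched for short core letters. A region ran from 250 bases before to 50 after an annotated start (GRCm38.p6). These factors are known to switch on Tfam, so the choice of genes was not neutral to such sites. The shares below were not tested. Start regions were in the table for 9 of the 10 genes, 14 in all. The ETS core CCGGAAG, on either strand, was present for 5 of the 9 genes (Tfam, Gabpa, Mfn1, Dnm1l and Fis1), against 9.93% of all 27025 genes in the table and 8.86% of its 32851 regions. The NRF1 core GCATGCGC was present in the Opa1 region alone, with 2 overlapping matches on opposite strands, against 2.71% of all regions. The cyclic AMP element TGACGTCA (1.79% of all regions) and the oestrogen-related receptor core AAGGTCA (4.72%) were in none of the 14. Stretches of 4 genes are shown to let the matches be compared, each 5′ to 3′ along the transcript strand, with 20 bases to either side of the match and the matched letters in capitals. They lie at chr10:71238065-71238111 on the minus strand for Tfam, and on the plus strand at chr16:84835011-84835057 for Gabpa, chr3:32529418-32529464 for Mfn1 and chr16:29579255-29579304 for Opa1.
Tfam: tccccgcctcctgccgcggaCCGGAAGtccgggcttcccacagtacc
Gabpa: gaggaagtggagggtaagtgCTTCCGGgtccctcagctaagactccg
Mfn1: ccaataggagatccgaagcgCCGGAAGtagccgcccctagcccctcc
Opa1: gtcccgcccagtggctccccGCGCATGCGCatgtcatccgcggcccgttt
The Gabpa match is in the reverse orientation. A match describes the letters and is no evidence that a factor was bound in these nerves.

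Neither outer membrane fusion gene passed the threshold. Mfn1, a mitofusin, gave 10.91 and 10.77 in controls and 10.87 and 11.13 in LKB1-SCKO, with 1 LKB1-SCKO pool between the controls (log2 fold change 0.16, SE 0.153, adjusted p = 0.587). Its other kept probe stood at 0.17, and a further one was not detected on any of the 4 arrays. Mfn2, the mitofusin tied to axonal neuropathy, was read by 1 probe at 12.20 and 11.93 in controls and 12.07 and 12.13 in LKB1-SCKO. The LKB1-SCKO pools lay between the control pools, and the log2 fold change was 0.032 (SE 0.151, 95% interval -0.35 to 0.41, adjusted p = 0.925).

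Opa1, the inner membrane fusion GTPase, had kept probes with estimates of opposite sign, both near background. Each was kept only through the genotype in which it was higher, so the filter helped to fix the signs and neither estimate is support for a change. Probe ILMN_1247460 had deposited signals of 183 and 198 in controls and of 176 and 171 in LKB1-SCKO, and it was not detected in LKB1-SCKO 2. Its log2 intensities were 5.87 and 6.05 against 5.70 and 5.12, lower in both LKB1-SCKO pools, and as the brightest kept probe it gave the gene a log2 fold change of -0.55 (SE 0.223, adjusted p = 0.232). Probe ILMN_1218742 had signals of 142 and 143 in controls, where it was not detected, and of 161 and 186 in LKB1-SCKO, where both arrays detected it. Its difference is written as a bound of at least 1.16-fold, for which no error was computed, so it is a description. The fitted log2 fold change of 0.70 (SE 0.172) did not pass over all kept probes (adjusted p = 0.111).

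Across 14 other settings on the same values, ILMN_1247460 ranged from -0.87 to -0.16 and ILMN_1218742 from 0.23 to 0.88, with adjusted p of 0.102 or more. The remaining probe, ILMN_1243717, was not detected on any array. All 3 are annotated to the same RefSeq transcript, and which exons they read is not given in the sources used here. With the mean over kept probes in place of the brightest, the log2 fold change of the gene was 0.08, so no direction can be given for Opa1. Deposited signals of the 3 probes ran from 142 to 198, and the array medians over all probes from 153 to 167.

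**Figure D4:**
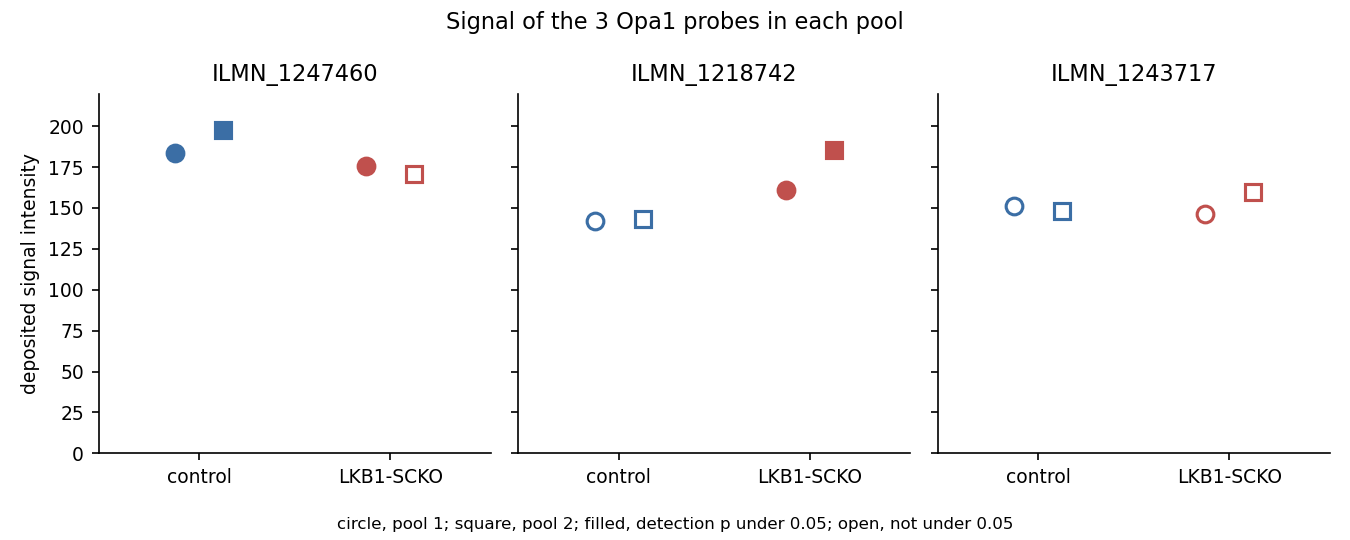
Deposited signal intensity, on a linear axis from 0, of the 3 Opa1 probes in each pool (circle, pool 1; square, pool 2; filled where the detection p-value was under 0.05). ILMN_1247460 is lower and ILMN_1218742 higher in both LKB1-SCKO pools.

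Neither fission gene passed the threshold. Dnm1l, which encodes the GTPase that constricts mitochondria, gave 9.67 and 9.48 in controls and 9.51 and 9.55 in LKB1-SCKO, so that its LKB1-SCKO pools lay between the controls. Its log2 fold change was -0.047 (SE 0.138, 95% interval -0.39 to 0.30, adjusted p = 0.874). Both other kept probes of Dnm1l, at -0.08 and -0.04, had the same sign. Fis1, a small outer membrane adaptor, gave 12.30 and 12.17 in controls and 12.06 and 12.11 in LKB1-SCKO. Both LKB1-SCKO pools were below both control pools by a narrow margin, and the log2 fold change was -0.15 (SE 0.132, 95% interval -0.48 to 0.19, adjusted p = 0.55). Its second probe stood at -0.11 with pools that overlapped.

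Around these 10 genes, 6 further lists of the same processes were read. In 5 of the lists 0 genes passed, and in that of mitochondrial genome upkeep and transcription 1 of 23 rose, 0 fell and 22 did not pass (5 at an unadjusted p under 0.05). Read against 3.79% of all genes past the threshold and 22.4% at the unadjusted p, the counts of that 1 list are near the background. In the other lists the unadjusted counts, given below, ran from 0 of 8 to 5 of 13. The gene that passed was Twnk, which encodes the helicase that unwinds mitochondrial DNA for replication. Controls read 7.45 and 7.46 and LKB1-SCKO pools 8.53 and 8.41 on the log2 intensity scale, a 2.03-fold rise (log2 fold change 1.02, SE 0.129, limma, adjusted p = 0.0246). Its other kept probes stood at 0.75 and 0.38, neither past the threshold over all probes. The probe at 0.38 read 4.78 and 5.27 in controls and 5.42 and 5.39 in LKB1-SCKO. It was kept only through LKB1-SCKO, where it was higher, so its value is a description. With the mean over all its kept probes, this one and the brightest included, the gene stood at 0.72 (limma, adjusted p = 0.0467). In the main setting the call of Twnk rests on the brightest probe. With control 1 left out the adjusted p was 0.0969, with control 2 left out 0.128 and with LKB1-SCKO 1 left out 0.068, so that these 3 pools were each needed for the call. The median log2 fold change of the 23 genes was 0.0049, so the middle of the list lay near 0.

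Transcripts of the mitochondrial genome itself, which the Tfam protein helps to transcribe, were read for 8 of 15 listed genes, and 0 passed in limma (0 at an unadjusted p under 0.05). The median log2 fold change was -0.065. The transcripts that differed most were COX2, a subunit of cytochrome oxidase, at -0.25 (12.87 and 13.10 in controls, 12.73 and 12.74 in LKB1-SCKO) and ND5, a subunit of complex I, at 0.24 (7.83 and 7.82 in controls, 8.12 and 8.01 in LKB1-SCKO). Both had pools that did not overlap, as did 55.1% of all genes, and their adjusted p were 0.358 and 0.339 in limma. Amounts of mitochondrial DNA were not measured.

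Other regulators of biogenesis had 0 of 14 past the threshold (2 at an unadjusted p under 0.05) and a median of -0.18. Foxo1, a forkhead factor gene that responds to insulin, stood at -0.51 and Kat2a, an acetyltransferase gene, at 0.38, with adjusted p of 0.212 and 0.17. Other genes of fusion and inner membrane shape had 0 of 19 (1 unadjusted) and a median of 0.091. Chchd6, a cristae junction gene, stood at -0.42 (limma, adjusted p = 0.146). Both its LKB1-SCKO pools were below both controls, where 55.1% of all genes had pools that did not overlap. Stoml2, which encodes an inner membrane scaffold protein, stood at 0.36 (limma, adjusted p = 0.309). Other fission genes had 0 of 15 (1 unadjusted) and a median of -0.015. There Mff, the adaptor gene that recruits the fission GTPase, stood at 0.45, but its control pools were 7.33 and 8.50 and enclosed LKB1-SCKO 2, so the spread between pools exceeded the difference. Sh3glb1, a membrane curvature gene, stood at -0.35 (adjusted p = 0.212).

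Genes that carry mitochondria along microtubules had 0 of 13 past the threshold, 5 at an unadjusted p under 0.05, where 22.4% of all genes were, and a median of -0.12. Kif5b is 1 of the 5 and was kept only through the controls, where it was higher. Armcx1, which encodes an outer membrane protein of mitochondrial transport, was 9.55 and 9.78 in controls and 8.76 and 9.04 in LKB1-SCKO (log2 fold change -0.77, SE 0.166, adjusted p = 0.0766). Kif5b, a kinesin heavy chain gene, was 5.46 and 5.51 in controls, near background, and was not detected in either LKB1-SCKO pool. Its difference is written as a bound of at least 1.21-fold, for which no error was computed. The fitted difference had an adjusted p of 0.107 in limma. In both genes the pools of the genotypes were apart, as in 55.1% of all genes, and neither passed over all genes. For Kif5b the filter helped to set the pools apart.

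**Figure D5:**
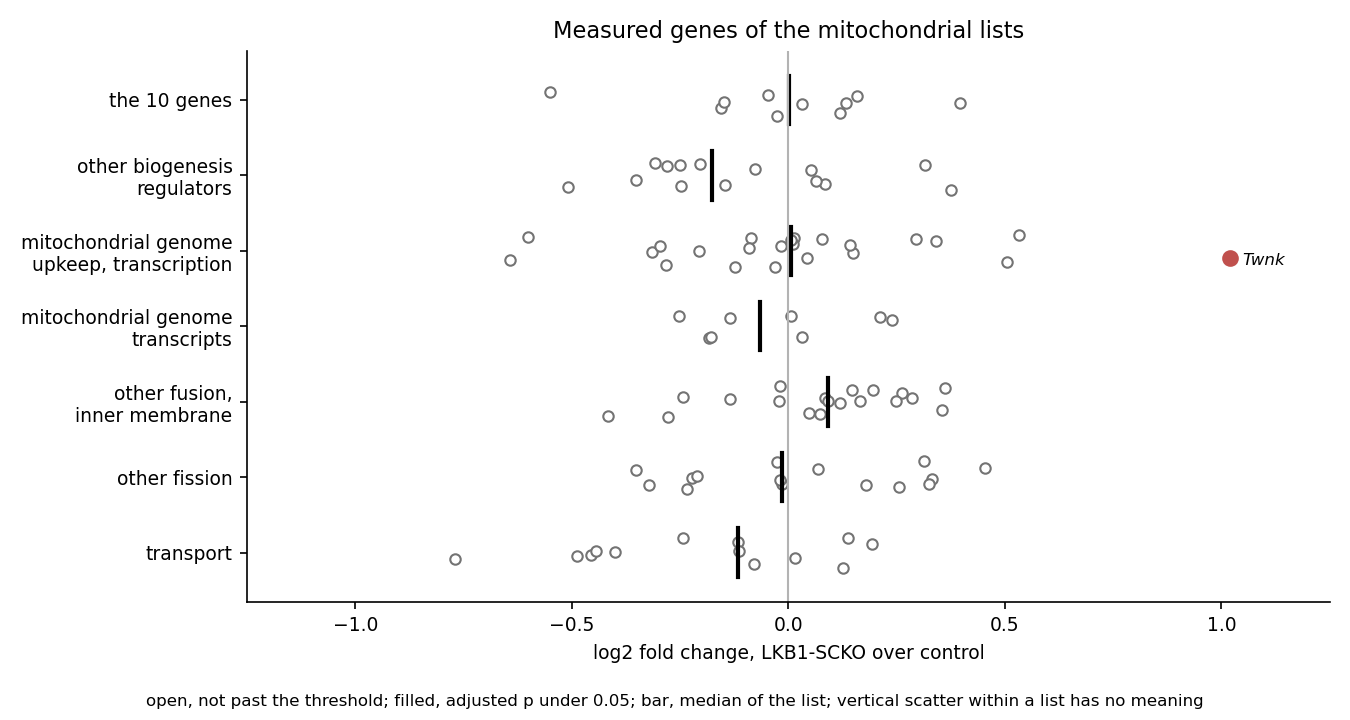
Log2 fold change of LKB1-SCKO over control (horizontal axis) for each measured gene of the 10 genes and 6 further lists, with a bar at the median of each list and vertical scatter that carries no meaning. Twnk is the 1 filled point, past an adjusted p of 0.05, and all other points lie closer to 0.

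Markers of other cells give the setting of these values. Of 9 measured macrophage markers 2 rose (Cx3cr1 with a log2 fold change of 1.87 and Mpeg1 with 1.28, limma, adjusted p = 0.0287 and 0.0402), 0 fell and 7 did not pass, where 3.79% of all genes passed. In all, 5 of the 9 had an unadjusted p under 0.05, against 22.4% of all genes. The call of Cx3cr1, a chemokine receptor gene, was lost with control 2 left out (adjusted p = 0.0957) and with the authors' processed values (0.0515). That of Mpeg1, a pore-forming protein gene, was lost with control 1 (0.126), control 2 (0.134) or LKB1-SCKO 1 (0.0656) left out, with median scaling (0.0605), with no detection filter (0.0563) and with the authors' processed values (0.063). The summed intensity of the macrophage list ranged from 5804 to 9139 in controls and from 11055 to 15537 in LKB1-SCKO. Red blood cell markers had 0 of 5 past the threshold (4 unadjusted), with sums from 37265 to 43357 in controls and from 82175 to 150419 in LKB1-SCKO. Lists of endothelium (0 of 7, median -0.085), fibroblasts and perineurium (0 of 8, median -0.12) and neurons (0 of 3, median 0.17) had 1 gene each at an unadjusted p under 0.05. The part of these cells in the values of the 10 mitochondrial genes and of Twnk was not tested.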

How the data were processed

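Non-normalized signal intensities and a detection p-value per probe were used as deposited, on a linear scale per the file headers. The authors' processed intensity values, deposited in a second table with the same distribution on every array, served as an alternative, and how they were made is not stated. The submitters' processing notes name GenomeStudio (2010). Genome build and slide: not given in the sources used here.

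In R 4.3.3, limma 3.58.1 corrected the background (normexp, offset 16, with 936 negative controls per array inferred from the detection p-values) before quantile normalization and the step to log2. Probes were named from the platform annotation, updated through RefSeq identifiers (34807 of 34885 probes with 1 symbol matched; 18 had several and 10378 none). The filter kept 19732 probes, 16821 with a gene, and the brightest kept probe stood for a gene. Fold changes set LKB1-SCKO over control and come from lmFit and eBayes with genotype as the only term, two-sided, Benjamini-Hochberg over 10858 genes, or over all kept probes where stated. The prior had 3.29 and the residual 2 degrees of freedom. Precision is limited by the small number of arrays. For a bound, written as at least N-fold, each array of the genotype without detection was given its lowest detected signal, or the signal of the probe itself if that was higher.

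Genes named from the further lists are those past the threshold, at most 3 a list, or the 2 of largest absolute log2 fold change where none passed. Marker genes of brown fat and Schwann cells beyond that rule were chosen after their values were seen. The 10 genes and all lists were chosen with earlier results of these data known. The fit was tested on simulated data. Alternatives covered the background correction, normalization, detection filter, the authors' values, probe averaging, array weights, an intensity trend, a replicate block and each pool left out. Same-numbered pools of the genotypes deviated from their genotype means with a correlation of -0.17 across genes, so the numbers were not taken to pair them.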

Additional observations from a re-analysis of the deposited data

How the results depend on the processing

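None of the 10 genes passed the threshold in any of 16 other settings. Genes called, 412 in the main setting, numbered 635 without background correction, 665 with an intensity trend, 172 with the replicate block, and between 112 and 483 with 1 pool left out. Probes called, 497 in the main setting, numbered 803 with an offset of 50, 849 without background correction, 257 without the detection filter, 284 with the authors' processed values, 895 with an intensity trend, 252 with the replicate block, and between 94 and 534 with 1 pool left out. The crossed pairing, added after seeing the data, gave 349 genes and 380 probes. Signs of small differences were not stable. With 1 pool left out, log2 fold changes lay between -0.24 and 0.19 for Ppargc1b, -0.44 and 0.13 for Tfam, -0.012 and 0.28 for Nrf1, -0.015 and 0.25 for Gabpa, -0.11 and 0.17 for Mfn2, and -0.14 and 0.047 for Dnm1l. Mfn2 stood at -0.052 with median scaling, and Opa1 at 0.078 with the mean over probes, where its opposite probes are averaged. For the other reversals the cause was not tested. Ppargc1a, Mfn1 and Fis1 kept their sign in all 16. Their estimates were unchanged under the other detection filters, array weights, the intensity trend and both replicate pairings. Those settings therefore say nothing on the sign. Opa1 had no kept probe when detection on all arrays was asked for. The replicate block changed no call among the 10 genes, but Twnk, Cx3cr1, Mpeg1 and Stk11 lost theirs (adjusted p = 0.0796, 0.08, 0.0946 and 0.109). Signals near background limit what Opa1 can show.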
